A study of Mus musculus with 20 samples.

Results

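Amino acid transporters of the cell surface are described here by the mRNA of 9 genes: Slc3a2, Slc7a5, Slc7a6, Slc7a11, Slc7a1, Slc1a4, Slc1a5, Slc38a1 and Slc38a2. They were chosen by symbol, and all 9 were found among 13107 genes tested in the Myc experiment and among 11210 tested in that with HU. These genes and the gene lists below were chosen with earlier results of these data known. Their counts beside the shares of all genes are therefore descriptions and not tests of the lists. Gene expression was profiled by RNA-seq in the mouse line p19/Nras, derived from a liver tumor that Nras induced in animals lacking p19/Arf, so that every group shares both lesions. In the Myc experiment, Trim33-WT cells (control guide RNA) and the CRISPR lines Trim33-KO1 and Trim33-KO2 carried the empty pWZL vector (Ctrl) or a Myc vector, which gave 6 groups. In the HU experiment, Trim33-WT cells and a Trim33-KO line that the labels do not number received vehicle or 1 mM hydroxyurea (HU), an inhibitor of ribonucleotide reductase that stalls replication forks, for 4 h, which gave 4 groups. Each group had 2 libraries, and since the labels do not say whether these came from separate cultures, and the study speaks of independent RNA-seq experiments without tying them to these libraries, p-values measure the spread between them, which may be technical.

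Cells take up amino acids by carriers with distinct ranges of substrates. Slc3a2 is the CD98 heavy chain, a glycoprotein that brings partner light chains to the plasma membrane. Its partners include Slc7a5 (LAT1), which exchanges large neutral amino acids such as leucine, Slc7a6 (y+LAT2), which exchanges cationic for neutral amino acids, and Slc7a11 (xCT), which imports cystine in exchange for glutamate and so feeds glutathione synthesis. Slc7a1 (CAT1) carries arginine and lysine, Slc1a4 (ASCT1) and Slc1a5 (ASCT2) exchange small neutral amino acids and glutamine, and Slc38a1 (SNAT1) and Slc38a2 (SNAT2) take up neutral amino acids together with sodium. Many of these genes are known targets of Atf4, the transcription factor whose translation rises when amino acids run short or when other stress leads to phosphorylation of eIF2α, and several are known targets of Myc.

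Libraries of the Myc experiment had 14753177 to 17949430 counts and those of the HU experiment 2315327 to 3082202, so that a transporter at a given level is measured with fewer reads in the latter. Values are given as CPM, the usual count scaled for depth, here by the TMM-adjusted library total, and a gene is called where its adjusted p-value from edgeR's quasi-likelihood test passes 0.01 for the Myc experiment or 0.05 for that with HU. With 2 libraries per group, an exact permutation test of a single gene cannot give a two-sided p below 0.333. Of epithelial and biliary markers 4 of 6 were listed in both experiments, with Krt8 and Krt18 at 922 CPM or above in every library, Sox9 at 15.4 to 199.96 CPM and Epcam and Cdh1 in neither. Mesenchymal markers were listed for 6 of 7 and 4 of 7 genes, with Vim at 2602 CPM or above, Col3a1 at 0.707 to 370.2 CPM, Pdgfrb at 4.68 to 204.4 CPM, Acta2 at 4.06 CPM or below in the Myc experiment only and Thy1 in neither. Of hepatocyte markers, 1 of 10 was listed for the Myc experiment and 2 of 10 for that with HU, with Alb and Hnf4a in neither. Afp was listed in both, at 0.221 to 32.996 CPM in the Myc experiment and 11.4 to 26.9 CPM in that with HU. Apob was listed in the HU experiment only. Markers of immune cells were represented by 1 gene of 5, Cd68, at 6.30 CPM or below, and those of endothelial cells by 0 of 4.

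Some libraries went against their labels, which bears on each comparison that uses the Myc vector. Trim33 mRNA was 245.6 and 258.1 CPM in WT Ctrl, 123.4 and 130.4 CPM in KO1 Ctrl and 200.9 and 206.8 CPM in KO2 Ctrl, whereas it was 130.7 and 154.7 CPM in the libraries labelled WT Myc, 185.4 and 192.5 CPM in those labelled KO1 Myc and 124.1 and 124.7 CPM in those labelled KO2 Myc. The libraries labelled KO1 Myc thus exceeded those labelled WT Myc. Of 9 genes that were under 0.5 CPM in KO1 Ctrl and at 5 CPM or above in WT Ctrl and KO2 Ctrl, 9 were under 0.5 CPM in the libraries labelled KO2 Myc and 0 in those labelled KO1 Myc. Conversely, of 5 genes that only KO1 Ctrl expressed by these limits, 5 were under 0.5 CPM in the libraries labelled KO1 Myc and 3 were at 5 CPM or above in those labelled KO2 Myc. By these genes, which were chosen after the Trim33 values were seen, the KO libraries with the Myc vector stood with the Ctrl libraries of the other line. Of 20 genes that only WT Ctrl expressed, 10 were at 5 CPM or above in the libraries labelled WT Myc and 0 in either KO group with the Myc vector. Groups are kept here as labelled, and results for the KO lines with the Myc vector are also given as the mean over both lines, which does not depend on which line is which. In the HU experiment Trim33 followed the labels, at 125.2 to 142.2 CPM in the 4 WT libraries and 43.8 to 52.2 CPM in the 4 KO libraries.

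The region around the start of each gene was searched for the letters TGATGNAA, the core of the C/EBP-ATF response element through which Atf4 acts, from 1000 bases before to 1000 bases after the outermost start of a coding transcript, on both strands, in build mm9 with the GENCODE annotation. They occurred in 6 of the 9 transporter genes and in 22.5% of 22359 protein-coding genes. For 4 of these 6 genes, the matches nearest to the gene's own start are shown, each with 10 flanking bases and read along the strand of the gene. Capitals mark the match, which appears as its reverse complement where it lies on the opposite strand.
Slc7a11, 66 bases before the start, upstream of the gene: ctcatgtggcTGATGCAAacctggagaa
Slc7a11, 47 bases before the start, upstream of the gene: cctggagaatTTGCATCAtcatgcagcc
Slc1a4, 4 bases before the start, overlapping an exon: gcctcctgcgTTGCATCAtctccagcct
Slc7a1, 66 bases after the start, in an exon: ggcgcgcggcTGATGAAAccggctcgga
Slc38a2, 514 bases after the start, in an intron: cccctcggtaTTGCATCAgttcctcccg
The windows shown lie on the minus strand at chr3:50247584-50247611 and chr3:50247565-50247592 for Slc7a11, chr11:20232703-20232730 for Slc1a4, chr5:149211397-149211424 for Slc7a1 and chr15:96529598-96529625 for Slc38a2. The neighbouring pair in Slc7a11 lies in opposite orientation, with a short gap between the matches. Slc1a5 and Slc38a1 also held a match, whereas Slc3a2, Slc7a5 and Slc7a6 held none in this window, which says only that these letters are absent there. The E-box CACGTG, which Myc and Max can bind, occurred in 6 of the 9 genes and in 27.9% of all protein-coding genes, and TGACNNNGC, the core of the antioxidant response element, in 5 of 9 and in 51.9%. Matches of different letters overlapped once, an E-box and an antioxidant core in an intron of Slc38a2. A match of letters is a description and was not tested as a binding site.

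The 9 transporters differed widely in level. Per kilobase of annotated exon, Slc38a2 had the highest group mean in each of the 10 groups, although in WT Myc its libraries overlapped those of Slc3a2, at 180.9 and 199.2 against 185.1 and 151.9 CPM per kb. It was at a mean of 247.4 CPM per kb in WT Ctrl, followed by Slc7a5 at 187.4 and Slc3a2 at 181.6 CPM per kb, then by Slc7a1 at 65.2, Slc1a4 at 33.4, Slc1a5 at 32.8, Slc7a11 at 25.6, Slc7a6 at 24.8 and Slc38a1 at 23.2 CPM per kb. Slc1a4 and Slc1a5 overlapped between their libraries, as did Slc7a11 and Slc7a6. In KO1 Ctrl and KO2 Ctrl, Slc1a4 was the lowest of the 9, at a mean of 7.43 and 10.4 CPM per kb, and Slc7a6 ranked next below Slc7a5, at 23.1 and 22.1 CPM per kb.

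The comparison of Trim33-KO with Trim33-WT cells with the Ctrl vector sets each KO line against the WT cells without added Myc. Here and in the HU experiment, loss of Trim33 and other differences between the lines cannot be told apart. The p-values measure spread between libraries of a line and not between lines. Transcripts of 8 of the 9 transporters were lower in both KO lines than in WT, and Slc7a6 was the exception in both. In KO1, 0 transporters were called higher and 8 lower, where 25.5% and 26.7% of all genes tested were called in these directions. In KO2 the counts were again 0 and 8, beside 23.3% and 26.6% of all genes. The median log2 fold change (log2FC) over the 9 was -1.17 in KO1 and -0.93 in KO2, while the median over all genes was -0.0036 and -0.011. Since the WT Ctrl libraries enter both, these comparisons are not independent of each other. Fitted without the libraries of the Myc vector and of the other line, each comparison again gave 8 called transporters. In cell populations measured in bulk, less RNA per cell and fewer cells that express a gene cannot be told apart.

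**Figure D1:**
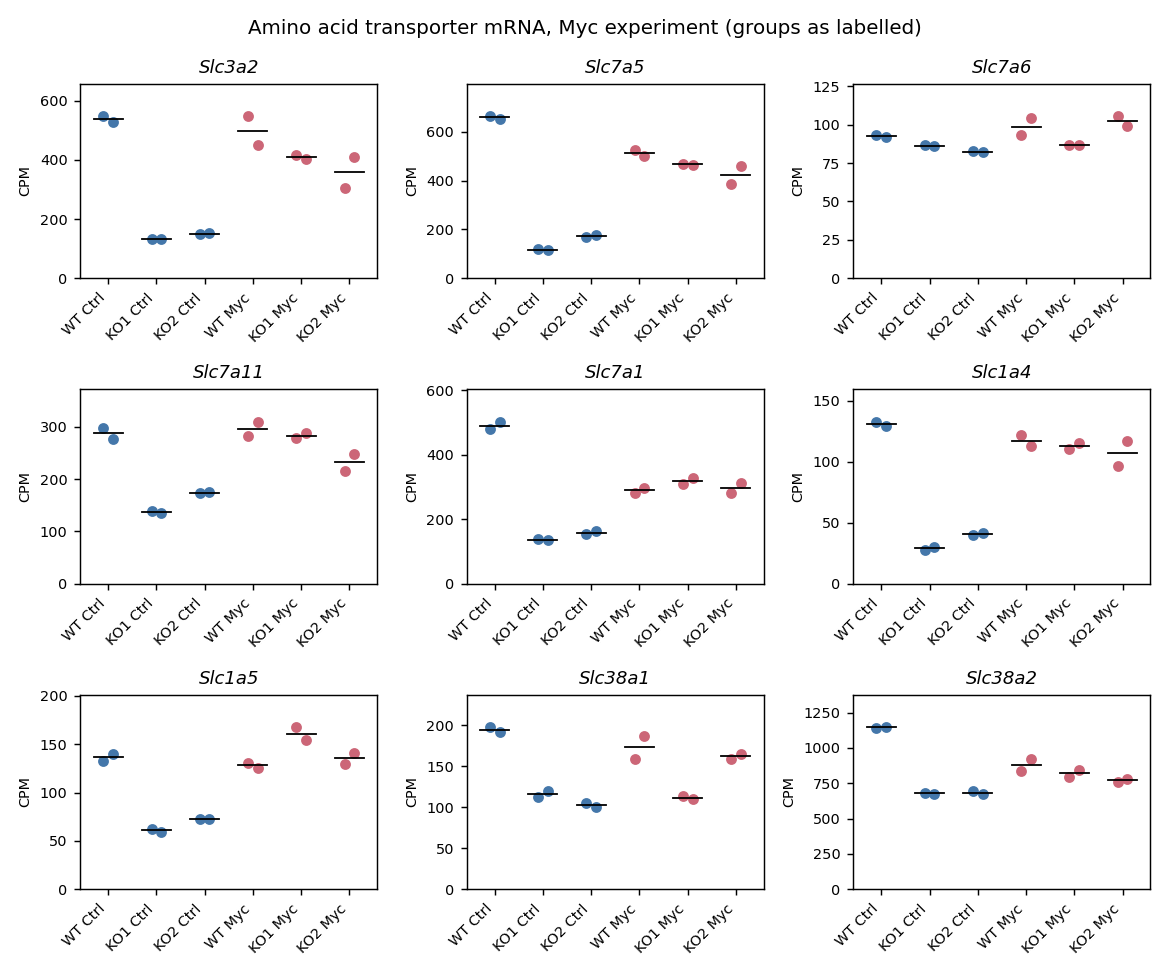
Amino acid transporter mRNA in the Myc experiment, one panel per gene. The vertical axis gives CPM from 0, points are single libraries (2 per group, blue for the Ctrl vector and red for the Myc vector, groups as labelled) and black lines are group means. Slc7a5 lay at 654 and 664 CPM in WT Ctrl and between 116 and 177 CPM in the 4 KO Ctrl libraries, while Slc7a6 stayed between 82.2 and 106 CPM in the 12 libraries.

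The heavy chain Slc3a2 (Entrez 17254, chr19:8781372-8797859, minus strand) was at 548 and 527 CPM in WT Ctrl, 133 and 132 CPM in KO1 Ctrl and 150 and 151 CPM in KO2 Ctrl. The groups did not overlap, and WT stood far above either KO line. Relative to WT, its log2FC was -2.02 in KO1 (SE, the standard error, 0.108, adjusted p = 1.23e-10) and -1.84 in KO2 (SE 0.107, adjusted p = 5.37e-10).
The leucine carrier Slc7a5 (Entrez 20539, chr8:124405052-124431594, minus strand) was at 664 and 654 CPM in WT Ctrl, 119 and 116 CPM in KO1 Ctrl and 170 and 177 CPM in KO2 Ctrl. It had the largest fall of the 9 in each line, with a log2FC of -2.49 in KO1 (SE 0.0726, adjusted p = 1.09e-13) and -1.93 in KO2 (SE 0.0705, adjusted p = 3.06e-12).
The other light chains behaved differently from Slc7a5. The cystine carrier Slc7a11 (Entrez 26570, chr3:50168858-50247535, minus strand) was at 298 and 277 CPM in WT Ctrl, 139 and 136 CPM in KO1 Ctrl and 173 and 175 CPM in KO2 Ctrl. It fell by less, with a log2FC of -1.07 in KO1 (SE 0.07, adjusted p = 1.59e-09) and -0.73 in KO2 (SE 0.069, adjusted p = 1.59e-07).
Slc7a6 (Entrez 330836, chr8:108692775-108722604, plus strand) was at 93.2 and 91.7 CPM in WT Ctrl, 86.5 and 86.0 CPM in KO1 Ctrl and 82.8 and 82.2 CPM in KO2 Ctrl. Although the WT libraries lay above the KO libraries, the log2FC of -0.10 in KO1 (95% interval -0.23 to 0.033, adjusted p = 0.175) and of -0.16 in KO2 (adjusted p = 0.0332) did not pass the threshold.

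The cationic carrier Slc7a1 (Entrez 11987, chr5:149138986-149211480, minus strand) was at 479 and 503 CPM in WT Ctrl, 138 and 136 CPM in KO1 Ctrl and 153 and 164 CPM in KO2 Ctrl. Its log2FC was -1.84 in KO1 (SE 0.0645, adjusted p = 8.74e-13) and -1.63 in KO2 (SE 0.0638, adjusted p = 6.19e-12). Both KO lines were well below WT, with no overlap.
Slc1a4 (Entrez 55963, chr11:20202183-20232716, minus strand), which carries serine, alanine and other small neutral amino acids, was at 133 and 129 CPM in WT Ctrl, 27.9 and 30.4 CPM in KO1 Ctrl and 40.2 and 41.6 CPM in KO2 Ctrl. Its log2FC was -2.17 in KO1 (SE 0.0885, adjusted p = 5.39e-12) and -1.68 in KO2 (SE 0.085, adjusted p = 9.39e-11), so that it fell more than its relative Slc1a5 in each line by the fitted values, although this difference between genes was not tested.
Slc1a5 (Entrez 20514, chr7:17366695-17383623, plus strand), the main glutamine exchanger of many tumor cells, was at 133 and 140 CPM in WT Ctrl, 62.7 and 58.8 CPM in KO1 Ctrl and 72.7 and 72.4 CPM in KO2 Ctrl. Its log2FC was -1.17 in KO1 (SE 0.0669, adjusted p = 2.88e-10) and -0.91 in KO2 (SE 0.0659, adjusted p = 6.7e-09).

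The sodium-coupled carriers fell less than most of the others, and in KO1 they had the smallest falls among the called genes. Slc38a1 (Entrez 105727, chr15:96401849-96473344, minus strand) was at 198 and 192 CPM in WT Ctrl, 112 and 120 CPM in KO1 Ctrl and 105 and 99.9 CPM in KO2 Ctrl, with a log2FC of -0.74 in KO1 (SE 0.0699, adjusted p = 1.25e-07) and -0.93 in KO2 (SE 0.0704, adjusted p = 1.19e-08). Slc38a2 (Entrez 67760, chr15:96517825-96530129, minus strand), encoded nearby, was at 1142 and 1148 CPM in WT Ctrl, 684 and 673 CPM in KO1 Ctrl and 693 and 672 CPM in KO2 Ctrl, with a log2FC of -0.75 in each line (SE 0.0561, adjusted p = 7.16e-09 and 1.07e-08). WT lay above both KO lines for either gene. Myc mRNA moved with the transporters, at 433 and 439 CPM in WT Ctrl, 186 and 196 CPM in KO1 Ctrl and 210 and 219 CPM in KO2 Ctrl, and its part in these differences was not tested.

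Comparing the KO lines with each other, 3 transporters were higher in KO2 Ctrl than in KO1 Ctrl and 0 lower, where 8.33% of all genes were higher and 9.96% lower. Those called were Slc7a5 (log2FC 0.56, SE 0.0718, adjusted p = 1.74e-05), Slc1a4 (log2FC 0.49, SE 0.0952, adjusted p = 0.000988) and Slc7a11 (log2FC 0.34, SE 0.0704, adjusted p = 0.00164). In each case KO2 Ctrl lay between KO1 and WT. Slc38a2 did not pass the threshold, and its interval was narrow, from -0.11 to 0.13 on the log2 scale. The number depended on the fit, since it was 7 with only these groups in the fit and 1 without KO1 Ctrl replicate 1 or without KO2 Ctrl replicate 2. Slc7a11 lost its call without any 1 of these 4 libraries (adjusted p = 0.0138 to 0.0239).

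**Figure D2:**
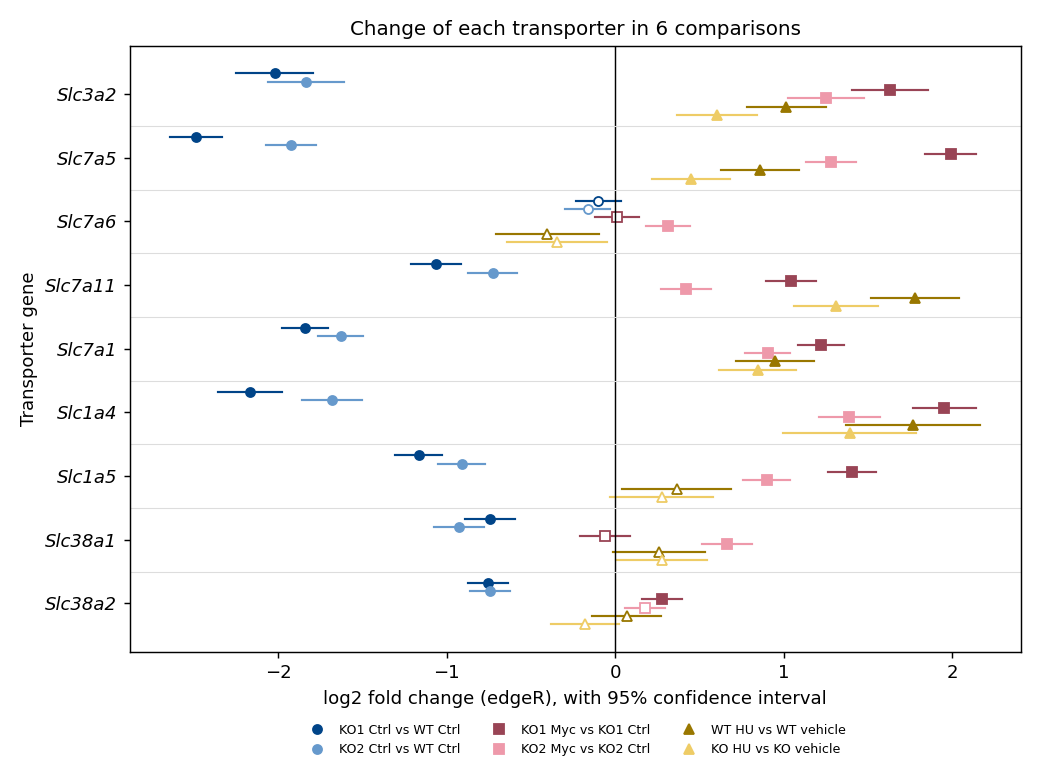
Log2 fold changes of the 9 transporters in 6 comparisons. The horizontal axis gives the log2FC from edgeR with its 95% confidence interval, filled symbols passed the threshold of their experiment and open symbols did not, and colours separate KO against WT (circles), Myc against Ctrl vector in the KO lines as labelled (squares) and HU against vehicle (triangles). The circles of 8 genes lie at -0.73 or below, and the squares of Slc3a2, Slc7a5 and Slc1a4 at 1.25 or above.

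In WT cells, some transporters were lower with the Myc vector, but their number was not far from the share of all genes called lower. In the libraries labelled WT Myc, 0 transporters were called higher and 3 lower than in WT Ctrl, beside 21.6% and 22.7% of all genes. Myc mRNA itself was at 456 and 458 CPM in these libraries and did not pass the threshold against WT Ctrl (log2FC 0.07, adjusted p = 0.31). The largest fall was that of Slc7a1, from 479 and 503 CPM to 283 and 297 CPM (log2FC -0.76, SE 0.0618, adjusted p = 5.13e-08). Slc7a5 was at 527 and 502 CPM with the Myc vector (log2FC -0.36, SE 0.0672, adjusted p = 0.000284) and Slc38a2 at 837 and 922 CPM (log2FC -0.38, SE 0.0557, adjusted p = 2.69e-05), each below both WT Ctrl libraries. Slc3a2 was at 547 and 449 CPM, a spread that overlapped WT Ctrl (95% interval of the log2FC -0.32 to 0.11). The remaining 5 transporters had log2FC between -0.17 and 0.096, the highest being that of Slc7a6, whose libraries at 93.5 and 104 CPM lay above both WT Ctrl libraries without passing the threshold (adjusted p = 0.20). Replicates varied most in this group, with a squared difference per gene of 11.05 times counting noise, where the other 5 groups of the experiment had 2.21 to 4.52 times.

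In the KO lines, transporters were higher with the Myc vector than with the Ctrl vector. In the libraries labelled KO1 Myc, 7 transporters were called higher than in KO1 Ctrl and 0 lower, beside 17.9% and 18.2% of all genes. In those labelled KO2 Myc, 8 were called higher than in KO2 Ctrl and 0 lower, beside 20.2% and 18.6% of all genes. The median log2FC over the 9 was 1.22 and 0.90, where the median over all genes was 0.0066 and 0.017. Averaged over both KO lines, 9 transporters were called higher and 0 lower, beside 21.1% and 20.9% of all genes, with a median of 1.06. Set against the Ctrl libraries of the other line, 7 were higher and 0 lower in the libraries labelled KO1 Myc, beside 15.3% and 14.3% of all genes, and 8 were higher and 0 lower in those labelled KO2 Myc, beside 13.6% and 15.2%. Myc mRNA rose as well, to 621 and 646 CPM in the former and 459 and 499 CPM in the latter, and its part in these changes was not tested.

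Among CD98 subunits, Slc3a2 was at 418 and 403 CPM in the libraries labelled KO1 Myc and 306 and 409 CPM in those labelled KO2 Myc, against 132 to 151 CPM in the KO Ctrl libraries. Averaged over both lines its log2FC was 1.44 (SE 0.0753, adjusted p = 3.87e-10). The libraries labelled KO2 Myc were the farthest apart for this gene, yet both stood above the KO Ctrl libraries. Slc7a5 reached 469 and 464 CPM and 384 and 459 CPM, with an averaged log2FC of 1.64 (SE 0.05, adjusted p = 1.38e-12). Slc7a11 reached 279 and 288 CPM and 216 and 249 CPM, with an averaged log2FC of 0.73 (SE 0.049, adjusted p = 6.09e-09). Both light chains thus separated from KO Ctrl without overlap. Slc7a6 differed by line as labelled: it was at 87.1 and 86.7 CPM in KO1 Myc (log2FC 0.011, SE 0.0626) and at 106 and 99.4 CPM in KO2 Myc (log2FC 0.31, SE 0.062, adjusted p = 0.000541).

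Slc1a4 showed the largest averaged rise of the 9, at 110 and 115 CPM in the libraries labelled KO1 Myc and 96.6 and 117 CPM in those labelled KO2 Myc (averaged log2FC 1.67, SE 0.0613, adjusted p = 7.49e-12). The arginine carrier Slc7a1 was at 311 and 328 CPM and 281 and 313 CPM (averaged log2FC 1.06, SE 0.045, adjusted p = 3.54e-11). Slc1a5 was at 168 and 154 CPM and 130 and 141 CPM (averaged log2FC 1.15, SE 0.0465, adjusted p = 2e-11), and in the libraries labelled KO1 Myc it exceeded both WT Ctrl libraries. The sodium-coupled carriers rose less on average, by 0.30 for Slc38a1 and 0.23 for Slc38a2 on the log2 scale, though more than Slc7a6 at 0.16. Slc38a1 was at 113 and 110 CPM in the libraries labelled KO1 Myc, which overlapped KO1 Ctrl, and at 159 and 165 CPM in those labelled KO2 Myc (log2FC 0.66, SE 0.0703, adjusted p = 1.09e-06). Slc38a2 was at 795 and 847 CPM and 761 and 781 CPM, and its log2FC was 0.27 in KO1 (SE 0.0559, adjusted p = 0.000706) and 0.18 in KO2 (SE 0.0559, adjusted p = 0.0151), the latter not called. The value in KO2 was called with only these groups in the fit (log2FC 0.17, adjusted p = 0.00547), and the call in KO1 was lost without KO1 Ctrl replicate 2 or without KO1 Myc replicate 2 (adjusted p = 0.0124 and 0.0149).

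Whether the Myc vector changed a transporter differently in KO and WT cells was tested as an interaction, the difference of the log2FC. For KO1 it passed in 7 transporters, beside 37.3% of all genes, and for KO2 in 8, beside 32.8% of all genes. Each called value was positive. Averaged over both KO lines, 8 passed, beside 34.7% of all genes, and Slc7a6 did not (log2FC 0.065, SE 0.0762, adjusted p = 0.509). The averaged difference was 1.99 for Slc7a5 (SE 0.084, adjusted p = 1.04e-10), 1.83 for Slc1a4 (SE 0.0995, adjusted p = 1.02e-09) and 1.82 for Slc7a1 (SE 0.0766, adjusted p = 1.04e-10), the largest of the 9. These tests share the WT Ctrl and the KO Ctrl libraries with the comparison of KO and WT above. The rise in the KO lines shares the KO Ctrl libraries with it. A low level in KO Ctrl enters all of these results, so they are not independent of the fall with the Ctrl vector.

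With the Myc vector in all lines, KO and WT lay closer together. In the libraries labelled KO1 Myc, 1 transporter was higher and 1 lower than in those labelled WT Myc, beside 12.6% and 12.5% of all genes: Slc1a5 (log2FC 0.33, SE 0.0626, adjusted p = 0.000615) and Slc38a1 (log2FC -0.64, SE 0.0697, adjusted p = 3.28e-06). In the libraries labelled KO2 Myc, 0 were higher and 3 lower, beside 17.2% and 18% of all genes: Slc3a2 (log2FC -0.48, SE 0.102, adjusted p = 0.00113), Slc7a11 (log2FC -0.35, SE 0.0678, adjusted p = 0.000504) and Slc7a5 (log2FC -0.29, SE 0.0673, adjusted p = 0.00233). Averaged over both KO lines, 1 was higher and 4 lower, beside 16% and 17.8% of all genes, with Slc1a5 higher and Slc38a1, Slc3a2, Slc7a5 and Slc7a11 lower. The 3 calls of KO2 rested on 1 library, since 0 remained without KO2 Myc replicate 1 and 5 transporters were called without WT Myc replicate 1.

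The HU experiment asks how cells respond to stalled replication forks. HU raised 5 of the 9 transporters in Trim33-WT cells and the same 5 in Trim33-KO cells: Slc3a2, Slc7a5, Slc7a11, Slc7a1 and Slc1a4. In WT cells 5 were called higher and 0 lower, beside 6.39% and 3.44% of all genes. In KO cells 5 were called higher and 0 lower, beside 4.65% and 1.8% of all genes. The median log2FC over the 9 was 0.86 in WT and 0.45 in KO, where the median over all genes was 0 and -0.0098. Myc mRNA also rose with HU, from 203 and 162 CPM to 385 and 331 CPM in WT cells (log2FC 0.98, adjusted p = 1.46e-09) and from 181 and 178 CPM to 267 and 253 CPM in KO cells (log2FC 0.53, adjusted p = 0.00118), and its part in these rises was not tested.

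**Figure D3:**
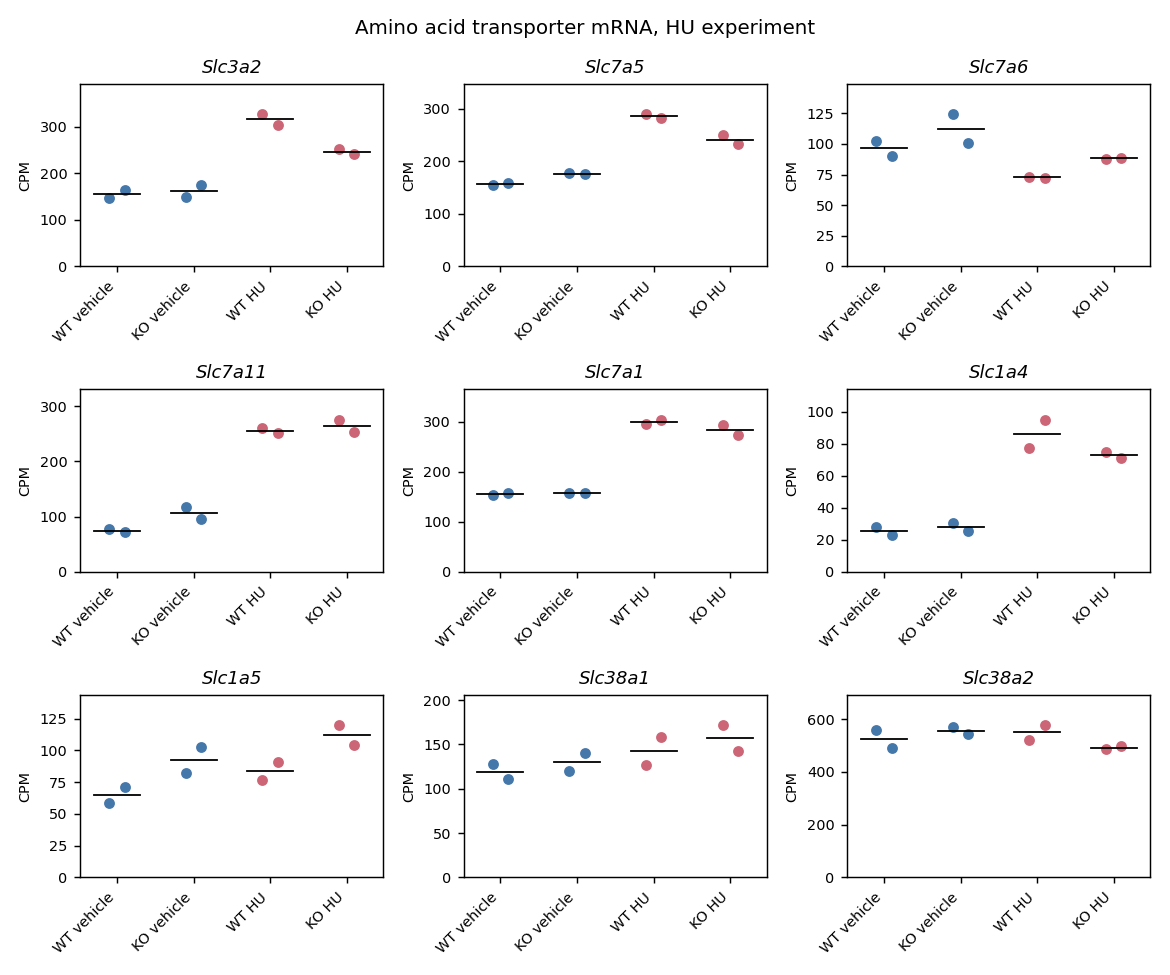
Amino acid transporter mRNA in the HU experiment, one panel per gene. The vertical axis gives CPM from 0, points are single libraries (2 per group, blue for vehicle and red for HU) and black lines are group means. Slc7a11 lay between 72.2 and 118 CPM in the 4 vehicle libraries and between 251 and 276 CPM in the 4 HU libraries, while Slc38a2 overlapped between vehicle and HU in WT cells.

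The largest rises were those of the cystine carrier and of Slc1a4. Slc7a11 was at 77.1 and 72.2 CPM in WT vehicle and 261 and 251 CPM in WT HU, a log2FC of 1.78 (SE 0.132, adjusted p = 1.56e-17). In KO cells it was at 118 and 96.2 CPM with vehicle and 276 and 253 CPM with HU, a log2FC of 1.31 (SE 0.126, adjusted p = 9.44e-13). Both genotypes thus reached similar levels with HU from different levels with vehicle. Slc1a4 was at 27.8 and 22.9 CPM in WT vehicle, 77.3 and 95.2 CPM in WT HU, 30.5 and 25.4 CPM in KO vehicle and 74.9 and 71.1 CPM in KO HU. Its log2FC was 1.77 in WT (SE 0.199, adjusted p = 2.17e-10) and 1.39 in KO (SE 0.198, adjusted p = 2.05e-07), and HU libraries lay above vehicle libraries in each genotype.

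Slc3a2 was at 148 and 165 CPM in WT vehicle and 328 and 305 CPM in WT HU (log2FC 1.02, SE 0.118, adjusted p = 5.04e-10). In KO cells it was at 150 and 174 CPM with vehicle and 252 and 241 CPM with HU (log2FC 0.60, SE 0.118, adjusted p = 0.000187). Slc7a5 was at 156 and 159 CPM in WT vehicle, 290 and 282 CPM in WT HU, 177 and 176 CPM in KO vehicle and 250 and 232 CPM in KO HU. For the heavy chain and for this light chain alike, the WT libraries with HU were the highest of the experiment. The log2FC of Slc7a5 was 0.86 in WT (SE 0.116, adjusted p = 3.82e-08) and 0.45 in KO (SE 0.116, adjusted p = 0.00701), and the latter was no longer called without KO HU replicate 1 (log2FC 0.40, adjusted p = 0.154). Slc7a1 was at 153 and 158 CPM in WT vehicle, 295 and 305 CPM in WT HU, 158 and 158 CPM in KO vehicle and 293 and 275 CPM in KO HU, with a log2FC of 0.95 in WT (SE 0.115, adjusted p = 2.12e-09) and 0.84 in KO (SE 0.115, adjusted p = 6.76e-08).

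The other 4 transporters did not pass the threshold in either genotype. Slc1a5 was at 58.3 and 71.0 CPM in WT vehicle and 76.4 and 90.7 CPM in WT HU (log2FC 0.36, adjusted p = 0.166), and at 82.1 and 103 CPM in KO vehicle and 120 and 104 CPM in KO HU (log2FC 0.28, adjusted p = 0.361). Slc38a1 had a log2FC of 0.26 in WT and 0.28 in KO (adjusted p = 0.266 and 0.274). Slc38a2, the most abundant of the 9, had a log2FC of 0.067 in WT, where its groups overlapped, and of -0.18 in KO (adjusted p = 0.77 and 0.377). Slc7a6 was lower in each HU library than in the vehicle libraries of its genotype, with 72.4 to 103 CPM in WT cells, but its log2FC of -0.40 in WT and -0.34 in KO did not pass (adjusted p = 0.0836 and 0.189).

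Whether HU acted differently by genotype was tested as an interaction, and 0 of the 9 transporters passed in edgeR or in DESeq2, beside 0.0714% of all genes (8 genes). Of the 9, 3 had an unadjusted p under 0.05 in edgeR, beside 602 of all 11210 genes. For these, Slc7a11, Slc3a2 and Slc7a5, the difference of the log2FC, KO minus WT, was -0.47, -0.41 and -0.41, with 95% intervals of -0.83 to -0.10, -0.75 to -0.081 and -0.74 to -0.085, and the adjusted p-values were 0.822, 0.833 and 0.833. At this depth a smaller rise in KO cells was therefore not established. Comparing KO HU with WT HU directly, 0 transporters were higher and 1 lower, beside 5.75% and 5.25% of all genes: Slc3a2, with a log2FC of -0.36 (SE 0.113, adjusted p = 0.0286). Myc mRNA was lower there too (log2FC -0.46, adjusted p = 0.00339). The call of Slc3a2 was lost when any of the 4 HU libraries was left out, with adjusted p-values of 0.104 to 0.285.

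Without HU, the transporters did not show in this experiment the difference between KO and WT seen with the Ctrl vector. In KO vehicle, 2 transporters were higher than in WT vehicle and 0 lower, beside 6.29% and 5.74% of all genes. Those called were Slc7a11 (log2FC 0.52, SE 0.14, adjusted p = 0.00863) and Slc1a5 (log2FC 0.52, SE 0.162, adjusted p = 0.0265), and every library left out removed 1 of these calls. Slc7a5 had a log2FC of 0.17 (95% interval -0.073 to 0.40), Slc3a2 of 0.056 (95% interval -0.19 to 0.30) and Slc7a1 of 0.024 (95% interval -0.22 to 0.26). The experiments were counted and scaled as separate tables and the difference between them was not tested. Side by side, Slc7a5 was at 664 and 654 CPM in WT Ctrl but at 156 and 159 CPM in WT vehicle, and Myc mRNA was at 433 and 439 CPM in WT Ctrl but at 203 and 162 CPM in WT vehicle. The KO Ctrl libraries, at 116 to 177 CPM of Slc7a5, lay nearer to the vehicle libraries of the other experiment than the WT Ctrl libraries did.

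Genes that respond to amino acid shortage moved with the transporters. Of 22 genes listed for the Gcn2 and Atf4 response, 1 was higher and 18 lower in KO1 Ctrl than in WT Ctrl (median log2FC -1.83), beside 25.5% and 26.7% of all genes, and 1 was higher and 19 lower in KO2 Ctrl (median -1.89), beside 23.3% and 26.6%. The genes that were higher, given here after their values were seen, were Eif2ak4, which encodes the kinase Gcn2, in KO1 (log2FC 0.33) and Impact, an inhibitor of Gcn2, in KO2 (log2FC 0.32). Cth, which makes cysteine from cystathionine, had the largest fall, with a log2FC of -5.52 in each line (SE 0.221, adjusted p = 4.36e-12 and 7.91e-12). Trib3, an Atf4 target and inhibitor of it, stood at -4.26 and -4.41, and Ppp1r15a, which directs dephosphorylation of eIF2α, at -4.14 and -4.22. Atf4 itself, named here after its values were seen, was at -1.74 and -1.84. With the Myc vector, 19 of the 22 rose in KO1, beside 17.9% of all genes, and 18 rose in KO2, beside 20.2%, where Impact fell (log2FC -0.43). In WT cells 13 fell with it, beside 22.7% of all genes, and Ddit4, an inhibitor of mTORC1, rose (log2FC 1.04). With HU, 16 of the 21 genes present in that table were higher and 0 lower in WT cells, beside 6.39% of all genes called higher, and 13 were higher and 0 lower in KO cells, beside 4.65%. Chac1, which degrades glutathione, had a log2FC of 4.97 in WT HU and 4.43 in KO HU. Between KO vehicle and WT vehicle edgeR called 0 of the 21, beside 6.29% of all genes called higher and 5.74% lower. Of the 21, 5 had an unadjusted p under 0.05, beside 2766 of all 11210 genes.

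The other transporters of the cell surface did not share one direction. Of 34 listed, 11 were measured in the Myc experiment and 9 in that with HU. In KO1 Ctrl 4 were higher and 5 lower than in WT Ctrl, where 25.5% and 26.7% of all genes were, and in KO2 Ctrl 3 were higher and 5 lower, where 23.3% and 26.6% were. The glycine transporter Slc6a9 behaved like the majority of the 9, with log2FC of -3.02 and -2.93 in the KO lines, of 2.00 and 1.60 with the Myc vector in the libraries labelled KO1 and KO2, and of 2.26 and 1.73 with HU in WT and KO cells. Slc43a2 (LAT4), which lets large neutral amino acids leave cells, went the other way in these lines, at 2.20 and 2.00, as did Slc36a4, at 1.74 and 1.81. The remaining calls, given after their values were seen, were falls of Slc7a7, Slc38a7, Slc36a1 and Slc16a10 and a rise of Slc6a6 in both lines, and a rise of Slc38a10 in KO1. Slc7a7 (y+LAT1), a further light chain of CD98, had log2FC of -0.66 in KO1 and -2.01 in KO2, at a mean of 3.27 CPM over the experiment. With HU, 1 of the 9 present was called higher and 0 lower in each genotype, and it was Slc6a9. Of all genes, 6.39% were called higher and 3.44% lower in WT cells, and 4.65% and 1.8% in KO cells.

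The last lists are carriers of organelles, amino acid sensing and glutamine and glutathione metabolism. With the Ctrl vector, 25.5% of all genes were higher and 26.7% lower in KO1, and 23.3% and 26.6% in KO2. With HU, 6.39% of all genes were higher and 3.44% lower in WT cells, and 4.65% and 1.8% in KO cells, so that 1 called gene of such a list is near these shares. Of 11 organelle carriers present, 2 were higher and 1 lower in KO1 Ctrl and 1 was higher and 2 lower in KO2 Ctrl. With HU, edgeR called 0 of 10 in either genotype. Of the 10, 1 in each had an unadjusted p under 0.05, beside 2413 of 11210 genes in WT and 1963 in KO cells. Slc25a12, a mitochondrial aspartate-glutamate carrier, was higher in both lines (log2FC 0.55 and 0.67), Slc25a38 was higher in KO1, Slc25a44 was lower in both and Ctns, the lysosomal cystine exporter, was lower in KO2. Of 32 genes of mTORC1 amino acid sensing, 5 were higher and 13 lower in KO1 Ctrl and 4 were higher and 11 lower in KO2 Ctrl, with medians of -0.085 and -0.091. The share of this list called in either direction was close to that of all genes. Sesn1, a sestrin that restrains mTORC1, was higher in both lines (log2FC 1.30 and 0.96), whereas Itfg2 was lower in both (log2FC -1.07 and -0.95). With HU, Fnip1 was the 1 gene of 31 called in either genotype (log2FC 0.57 in WT and 0.74 in KO). Rragb, which encodes a Rag GTPase, was among the genes that went against the labels, with 137 and 147 counts in WT Ctrl, 1 and 2 counts in KO1 Ctrl, 112 and 97 counts in KO2 Ctrl, 146 and 128 counts in the libraries labelled KO1 Myc and 0 counts in both labelled KO2 Myc. Of 16 genes of glutamine and glutathione metabolism, 2 were higher and 5 lower in KO1 Ctrl and 4 were higher and 3 lower in KO2 Ctrl. Got1, the cytosolic aspartate aminotransferase, fell in both lines (log2FC -1.27 and -1.30). With HU it was the 1 gene of the list called in WT cells (log2FC 0.62, SE 0.146, adjusted p = 0.00203). In KO cells edgeR called 0 of 14, with 3 at an unadjusted p under 0.05, beside 1963 of all 11210 genes.

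Across the 10 group means, each centred on its own experiment, most of the 9 transporters followed each other. As a description over group means that share libraries within an experiment, Pearson's r of log2 CPM was 0.98 between Slc3a2 and Slc7a5, 0.95 between Slc3a2 and each of Slc7a1 and Slc1a4, and 0.92 between Slc7a11 and Slc1a4. Pairs with the sodium-coupled carriers were looser, with r of 0.36 between Slc7a11 and Slc38a2, 0.56 between Slc1a5 and Slc38a2 and 0.58 between Slc7a11 and Slc38a1. Slc7a6 stood apart, with r from -0.37 (Slc7a11) to 0.26 (Slc1a5). Among 10103 genes at 5 CPM or above on average in both experiments, those most like Slc3a2 were Gpt2, a mitochondrial alanine aminotransferase, with r of 0.994, and Arl14ep and Eif4ebp1, each with r of 0.992. Those most like Slc7a11 were Stk40 with r of 0.980, the metallothionein Mt2 with 0.974 and Arid5a with 0.973.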

How the data were processed

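RNA-seq was analysed from gene tables of 12 libraries (Myc experiment) and 8 libraries (HU experiment). The submitters' processing notes name STAR 2.5.4, edgeR 3.26.8 and the mm9 build, and the authors deposited whole-number counts for each gene. One table is named as normalized, but its library totals differ and it was treated as raw counts. Genes without a symbol numbered 298 and 168. The counting tool and annotation are not given in the sources used here, so reads shared by near-identical genes or overlapping genes could not be followed. Of counts between 1 and 50 in the HU experiment 71.9% were even, against 48.4% in the Myc experiment, and halved counts were therefore tried. Results of the authors' own comparisons (fold changes and p-values) were deposited too and were not used.

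Counts were tested with edgeR 4.0.16 under R 4.3.3, each experiment fitted alone with TMM factors (0.958 to 1.02) and 1 coefficient per group. The quasi-likelihood test was used, with Benjamini-Hochberg adjustment over all genes tested. The filter filterByExpr removed 0 genes. Thresholds on the adjusted p were those of the study, 0.01 and 0.05. The SE is the absolute log2FC divided by the square root of F. Alternatives were DESeq2 1.42.0, its size factors, other filters, the compared groups alone, a block for the replicate number, halved HU counts and each library left out. Averages over both KO lines and comparisons with the other line's Ctrl libraries were added after the data were seen. The procedure was tested on simulated data. The 9 transporters and the gene lists were chosen with earlier results of these data known. Every transporter is named, and from each list at most the 3 called genes with the largest absolute log2FC and a mean of at least 5 CPM. Other genes of the lists are named where a count was 5 or fewer or where the text says that they were chosen after their values were seen.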

Additional observations from a re-analysis of the deposited data

Results flagged for a closer look

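The effect of the Myc vector differed between KO and WT cells for 7 transporters in KO1 and 8 in KO2, with groups as labelled. The test was of the difference itself, edgeR's interaction term, which 37.3% of all genes passed for KO1 and 32.8% for KO2. For KO1 the difference of the log2FC, KO minus WT, was 2.35 for Slc7a5, 2.11 for Slc1a4, 1.98 for Slc7a1, 1.74 for Slc3a2, 1.50 for Slc1a5, 1.00 for Slc7a11 and 0.66 for Slc38a2. For KO2 it was 1.67 for Slc7a1, 1.64 for Slc7a5, 1.55 for Slc1a4, 1.36 for Slc3a2, 0.99 for Slc1a5, 0.83 for Slc38a1, 0.56 for Slc38a2 and 0.38 for Slc7a11. In WT cells the Myc vector went with a fall (Slc7a5, Slc7a1, Slc38a2) or with no called change, and the KO lines started from lower levels. That of Slc7a11 in KO2 was no longer called with the compared groups alone in the fit (adjusted p = 0.0124), nor (adjusted p = 0.016 to 0.0338) without WT Ctrl replicate 1, KO2 Ctrl replicate 1 or 2 or KO2 Myc replicate 2. Trim33 mRNA and genes expressed in only 1 KO line went against the labels of the Myc-vector libraries, and their part in these differences was not tested. Groups of 2 libraries are too small for a search for single outlying samples.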

How the results depend on the processing

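The numbers of called transporters for KO against WT with the Ctrl vector, for Myc against Ctrl in each line, for both interactions with Myc and for HU against vehicle in each genotype stayed within 1.5 times under the alternatives run. Others moved. With only the compared groups in the fit, the number became 1 for KO1 Myc against WT Myc (from 2), 0 for KO2 Myc against WT Myc (from 3), 7 for KO2 Ctrl against KO1 Ctrl (from 3), 1 for KO against WT with vehicle (from 2) and 3 for KO against WT with HU (from 1). DESeq2 gave 1 and 0 for the last pair, halved counts 2 with HU, and the mean of both KO lines 5 against WT Myc. Leaving out 1 library gave 0 to 5 transporters for KO2 Myc against WT Myc, 1 to 2 for KO2 Ctrl against KO1 Ctrl, 1 for KO against WT with vehicle and 0 with HU.

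Deviations of same-numbered libraries correlated at -0.34 (WT Myc with KO2 Myc) to 0.48 (WT Myc with KO1 Myc) in the Myc experiment. Between its Ctrl groups the values were 0.0059 to 0.070, and in the HU experiment they were -0.023 to 0.077. Whether replicate numbers pair the samples was therefore not settled for the libraries with the Myc vector. A block assumes the same deviation in every group, so it cannot take up deviations of opposite sign. With the replicate block, 2 transporters were called for KO against WT with HU (Slc1a5 added), and Slc38a2 in KO2 Myc against WT Myc and Slc7a1 in KO2 Ctrl against KO1 Ctrl became called.

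Of 1494 log2FC recomputed, 1410 kept their direction and call, 32 lost and 20 gained a call, and 32 changed sign, each of the last without 1 library and for a value not called. These ranged without 1 library as follows. For WT Myc against WT Ctrl, Slc3a2 ranged from -0.26 to 0.027 and Slc7a11 from -0.028 to 0.11. For KO1 Myc against WT Myc, Slc1a4 ranged from -0.11 to 0.0028 and Slc7a11 from -0.13 to 0.0052. For KO2 Myc against WT Myc, Slc1a4 ranged from -0.28 to 9.3e-05, Slc38a1 from -0.21 to 0.023, Slc7a1 from -0.046 to 0.11 and Slc7a6 from -0.023 to 0.13. Slc38a2 ranged from -0.014 to 0.031 for KO2 Ctrl against KO1 Ctrl, and Slc38a1 from -0.0038 to 0.23 for the interaction of KO1 and Myc. For KO against WT with vehicle, Slc1a4 ranged from -0.0099 to 0.27, Slc38a2 from -0.011 to 0.17 and Slc3a2 from -0.056 to 0.14, and with HU, Slc38a1 from -0.0047 to 0.31 and Slc7a11 from -0.016 to 0.11. Slc38a2 ranged from -0.036 to 0.15 for HU in WT, and for the interaction of KO and HU, Slc1a5 ranged from -0.23 to 0.090, Slc38a1 from -0.13 to 0.18 and Slc7a6 from -0.087 to 0.24. The cause of these changes was not tested. The interaction of KO and HU uses all groups, so it has no fit of the compared groups alone. Where 1 library is left out, the lone library of its group is assumed to vary like those of the other groups.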
